A study of Mus musculus with 9 samples.

Results

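The 10 genes described here encode elastin, fibrillin, fibulin and microfibril-associated proteins and fibronectin: Eln, Fbn1, Mfap4, Mfap5, Efemp2, Fbln5, Efemp1, Fbln1, Fbln2 and Fn1. They were chosen by gene symbol out of the 20634 genes measured, and all 10 were among the 15549 genes with enough reads to be tested. RNA was sequenced from the left ventricle of 9 mouse samples on a C57BL/6 background, all aged 6 months. Knockout (KO) animals lacked delta-sarcoglycan, the product of Sgcd, and wild-type (WT) animals did not. Delta-sarcoglycan is a transmembrane partner of dystrophin in muscle, and its loss in mice models muscular dystrophy with cardiomyopathy. The groups were 3 KO samples given ifetroban, 2 KO samples given vehicle, 2 WT samples given ifetroban and 2 WT samples given vehicle. Ifetroban blocks the thromboxane-prostanoid receptor and was taken in the drinking water at 25 mg/kg/day from weaning, and the vehicle was plain drinking water. All 4 groups had running wheels at intervals to bring on the cardiomyopathy, so no sedentary group was compared. The labels name neither the deleted exons of Sgcd nor the animal behind each sample.

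An elastic fibre is a core of cross-linked elastin laid down on a sheath of fibrillin microfibrils. Fibulins bind tropoelastin, the soluble precursor, and bring it to the microfibrils and to the lysyl oxidases that cross-link it, while fibronectin forms a provisional network on which fibrillin is assembled by cultured cells. In the heart such fibres lie in the walls of coronary vessels, in the valves, in the endocardium and in the interstitial matrix, where microfibrils also hold latent TGF-beta.

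Libraries held 21510263 to 30182955 counts, and replicates differed by more than counting noise. The labels do not say that replicates came from separate animals, so p-values measure only the spread between these samples. The targeted gene Sgcd measured 7.30, 12.9 and 13.3 CPM (counts scaled to library size with TMM factors) in KO ifetroban and, under vehicle, 9.64 and 8.63 CPM in KO, against 23.7 and 23.5 CPM in WT ifetroban and 8.36 and 20.9 CPM in WT vehicle. KO levels took in that of the library labelled WT vehicle replicate 1, so the Sgcd level does not check this label. KO ifetroban replicate 1 carries conflicting labels: its title and source name give ifetroban, its treatment field gives vehicle. It was placed in the ifetroban group. The libraries also fell into 2 sets by length slope, the rank correlation (Spearman's rho) across 13051 protein-coding genes between transcript length and a gene's deviation from its mean. It was negative, at -0.52 to -0.40, in KO ifetroban replicate 1, both KO vehicle libraries and the library labelled WT vehicle replicate 1, and positive, at 0.38 to 0.43, in the other 5. The labels give no cause for the split. Results were therefore also taken without single libraries and within each set.

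All 10 genes are protein-coding, and their positions are in the mouse build mm10. Efemp2 lies on chromosome 19 (5473973 to 5481853, plus strand), Efemp1 on chromosome 11 (28853204 to 28926743, plus strand) and Mfap4 on the same chromosome (61485431 to 61488900, plus strand). Mfap5 (122505845 to 122529290) and Fbln2 (91212455 to 91272540) lie on the plus strand of chromosome 6, and Fbln1 on that of chromosome 15 (85205949 to 85286535). On the minus strand are Fn1 on chromosome 1 (71585520 to 71653200), Fbn1 on chromosome 2 (125300594 to 125507993), Eln on chromosome 5 (134702593 to 134747323) and Fbln5 on chromosome 12 (101746565 to 101819055). Mfap4 overlaps Mapk7 on the opposite strand, which had at most 303 counts in a library. No source used here gives the strand rule of the counting, so reads within that overlap cannot be told apart. The genes that overlap Eln and Fbn1 had at most 2 and 14 counts.

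Promoter sequences were found for 6 of the 10 genes in the RefSeq table for GRCm38.p6: Fbn1, Fbln1, Fbln2, Fbln5, Efemp1 and Efemp2. The windows of Efemp2 and Efemp1 are shown because these paralogues, which encode fibulin 4 and fibulin 3, gave opposite signs of difference between KO and WT. The negative value, that of Efemp1, was small and not called (log2 fold change -0.19 ± 0.13, edgeR, adjusted p = 0.501). Each window is the 250 bases before the RefSeq start, 5′ to 3′ on the plus strand, at chr19:5473696-5473945 for Efemp2 and chr11:28852955-28853204 for Efemp1. Capitals mark matches, on either strand, to a GC box (GGGCGG, bound by Sp factors), an AP-1 element (TGANTCA), a TEAD element (GGAATG) or a SMAD element (CAGAC).
Efemp2: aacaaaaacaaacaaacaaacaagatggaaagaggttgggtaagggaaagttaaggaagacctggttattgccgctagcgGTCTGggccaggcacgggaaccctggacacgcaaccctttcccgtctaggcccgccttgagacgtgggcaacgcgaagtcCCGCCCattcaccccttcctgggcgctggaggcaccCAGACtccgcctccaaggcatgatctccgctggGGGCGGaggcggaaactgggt
Efemp1: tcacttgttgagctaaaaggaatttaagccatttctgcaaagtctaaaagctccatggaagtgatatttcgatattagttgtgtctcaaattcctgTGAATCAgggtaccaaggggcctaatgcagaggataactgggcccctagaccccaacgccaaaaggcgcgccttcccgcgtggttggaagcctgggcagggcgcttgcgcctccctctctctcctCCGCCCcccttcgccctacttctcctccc
The Efemp2 window held 2 GC boxes and 2 SMAD elements, and the Efemp1 window 1 GC box and 1 AP-1 element. GC boxes were found in 5 of the 6 windows and in 32.7% of all 32851 windows of this length in the table. SMAD elements were found in 2 of the 6 (Fbln1 and Efemp2) and in 42.2% of all windows, AP-1 elements in 1 of the 6 and 6.7%, and TEAD elements in 0 of the 6 and 12.6%. A match is a run of letters and not evidence of binding. GC content was 59.2% in the Efemp2 window and 53.6% in the Efemp1 window, against a median of 52.4% over all windows.

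Levels between genes were compared as CPM per kilobase of the longest annotated transcript. Over the 9 libraries, Fbln2, which encodes a fibulin of vessel walls and valves, had the highest level at 30.7 ± 6.40 CPM per kilobase (SD, n = 9). Fbln1 followed at 22.3 ± 7.65, and then Mfap4 at 10.7 ± 7.43, Fn1 at 10.4 ± 4.95, Fbn1 at 9.06 ± 2.95 and Mfap5 at 8.72 ± 3.90 CPM per kilobase. The lowest levels were those of Eln (6.33 ± 1.94), Efemp1 (4.32 ± 0.824), Efemp2 (4.03 ± 1.14) and Fbln5 (3.47 ± 0.562). The step between neighbours in this order never exceeded the sum of their SDs. The order differed between the genotypes in the middle ranks: Mfap4 stood above Fn1 and Fbn1 in KO at 14.8 ± 8.03 (n = 5) and below both in WT at 5.69 ± 0.344 CPM per kilobase (n = 4), and Efemp2 stood above Fbln5 and Efemp1 in KO at 4.88 ± 0.628 and was the lowest in WT at 2.97 ± 0.489. Counts behind these levels were low for Efemp1, with 157 to 313 per library, and for Efemp2, with 142 to 362, and highest for Fbln2, with 2165 to 5333.

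**Figure D1:**
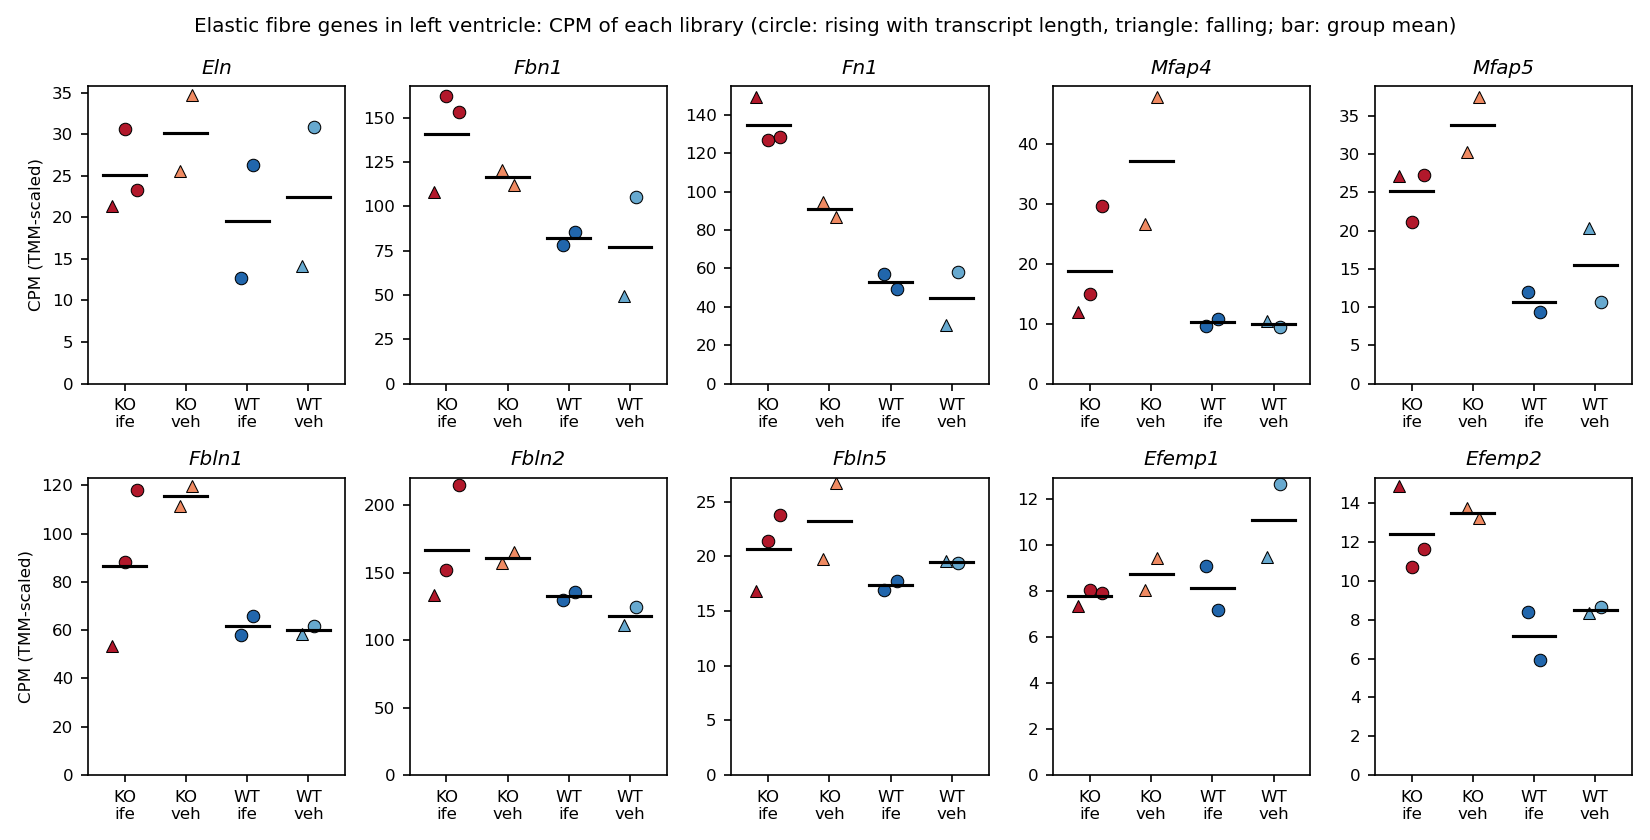
Level of each of the 10 elastic fibre genes (CPM, linear axis from 0) in KO ifetroban, KO vehicle, WT ifetroban and WT vehicle libraries; points are libraries, circles those with a positive and triangles those with a negative length slope, and bars are group means. Fn1 and Efemp2 were higher in each of the 5 KO libraries than in each of the 4 WT libraries, while Eln and Efemp1 overlapped between the genotypes.

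The main comparison set the 5 KO libraries against the 4 WT libraries, over both treatments. Fn1, Mfap5 and Efemp2 rose in KO, by 2.30-fold, 2.28-fold and 1.66-fold, and no elastic fibre gene fell. The other 7 did not pass the threshold, an adjusted p of 0.05 in edgeR's quasi-likelihood test with Benjamini-Hochberg adjustment over all genes tested. Passing that test were 2.33% of all genes, 321 higher and 42 lower in KO. DESeq2 called 6 of the 10 and 5.76% of all genes. The median log2 fold change of the 10 genes was 0.69, beside -0.02 over all genes tested, and 9 of the 10 were positive. Every KO library lay above every WT library for 5 of the 10 (Fbn1, Efemp2, Mfap4, Mfap5 and Fn1), beside 4.62% of all genes. In bulk tissue, a change in the number of cells that make a transcript and a change in RNA per cell cannot be told apart.

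Fn1, the gene of fibronectin, measured 149, 127 and 129 CPM in KO ifetroban and 94.8 and 86.9 CPM in KO vehicle. WT libraries measured 57.3 and 49.1 CPM under ifetroban and 30.7 and 58.3 CPM under vehicle. All KO libraries were above all WT libraries, and within KO the ifetroban libraries were above the vehicle ones. The log2 fold change was 1.20 ± 0.17 (SE, edgeR, adjusted p = 0.00901, 5 KO against 4 WT). Without WT ifetroban replicate 2 it was 1.12 and did not pass (adjusted p = 0.0578), and with each other library left out it passed.

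Mfap5 encodes a microfibril-associated glycoprotein that binds fibrillin. It measured 27.1, 21.1 and 27.2 CPM in KO ifetroban and 30.2 and 37.5 CPM in KO vehicle, against 11.9 and 9.37 CPM in WT ifetroban and 20.3 and 10.7 CPM in WT vehicle. The groups did not overlap, but the library labelled WT vehicle replicate 1 came close to the lowest KO library. KO exceeded WT by a log2 fold change of 1.19 ± 0.18 (edgeR, adjusted p = 0.0113). Without WT ifetroban replicate 2 it was 1.11 and did not pass (adjusted p = 0.0666), and with each other library left out it passed.

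Efemp2 encodes fibulin 4, which links tropoelastin to lysyl oxidase and without which mice form no proper elastic fibres. Its level was 14.9, 10.7 and 11.7 CPM in KO ifetroban and 13.7 and 13.2 CPM in KO vehicle, against 8.40 and 5.91 CPM in WT ifetroban and 8.36 and 8.67 CPM in WT vehicle. KO and WT libraries did not overlap, and KO treatment groups were intermixed. Between KO and WT it changed by 0.73 ± 0.14 on the log2 scale (edgeR, adjusted p = 0.0233). It stayed between 0.62 and 0.83 with each library left out in turn, but did not pass without either KO vehicle library (adjusted p = 0.0897 and 0.0526), without WT vehicle replicate 2 (0.0513) or without WT ifetroban replicate 2 (0.102).

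Mfap4, whose product binds elastin and fibrillin, had the highest fold change and, relative to its mean, the widest spread of the 10. KO libraries measured 11.9, 15.0 and 29.6 CPM under ifetroban and 26.6 and 47.8 CPM under vehicle, against 9.61 and 10.8 CPM in WT ifetroban and 10.4 and 9.52 CPM in WT vehicle. WT libraries were close together, and KO libraries ranged from just above them upward. The log2 fold change of 1.35 ± 0.31 missed the threshold in edgeR (adjusted p = 0.0501). In edgeR it passed with DESeq2 size factors (adjusted p = 0.0493) and with a minimum of 1 CPM throughout a group (0.0492). It missed in edgeR with no filter (0.0902) and in limma-voom (adjusted p = 0.0683). It was 1.52 and passed without KO ifetroban replicate 1, the library with conflicting labels (adjusted p = 0.0244).

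Fbn1, the gene of the microfibril backbone protein fibrillin 1, measured 108, 162 and 153 CPM in KO ifetroban and 121 and 112 CPM in KO vehicle, against 78.5 and 85.8 CPM in WT ifetroban and 49.7 and 105 CPM in WT vehicle. The groups were apart, with the highest WT library just below the lowest KO one. The log2 fold change of 0.69 ± 0.20 did not pass (edgeR, adjusted p = 0.114). Without WT vehicle replicate 2, the highest WT library, it was 0.94 and passed (adjusted p = 0.0245).

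Fbln1, whose product binds fibronectin and elastin, measured 53.5, 88.3 and 118 CPM in KO ifetroban and 111 and 120 CPM in KO vehicle, against 57.9 and 65.7 CPM in WT ifetroban and 58.2 and 61.7 CPM in WT vehicle. KO ifetroban replicate 1 lay below all WT libraries, and the other KO libraries lay above them. Its log2 fold change was 0.69 ± 0.20 (edgeR, adjusted p = 0.108). It was 0.84 and passed without KO ifetroban replicate 1 (adjusted p = 0.00500).

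Eln, the gene of elastin itself, measured 21.3, 30.7 and 23.3 CPM in KO ifetroban and 25.5 and 34.7 CPM in KO vehicle, against 12.7 and 26.4 CPM in WT ifetroban and 14.2 and 30.9 CPM in WT vehicle. The genotypes overlapped, because each WT group held a low library and a high one. The log2 fold change of 0.39 ± 0.26 did not pass (edgeR, adjusted p = 0.484).

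The remaining fibulins overlapped between the genotypes. Fbln2 ranged from 134 to 215 CPM in KO and from 111 to 136 CPM in WT, at a log2 fold change of 0.39 ± 0.13 (edgeR, adjusted p = 0.178). Fbln5 encodes an elastin-binding fibulin needed for fibre assembly in mice, and it ranged from 16.8 to 26.7 CPM in KO and from 16.9 to 19.6 CPM in WT, at 0.25 ± 0.12 (adjusted p = 0.351). Efemp1, expressed at 7.35 to 9.44 CPM in KO and 7.20 to 12.7 CPM in WT, was the gene with a negative value, -0.19 ± 0.13 (adjusted p = 0.501).

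**Figure D2:**
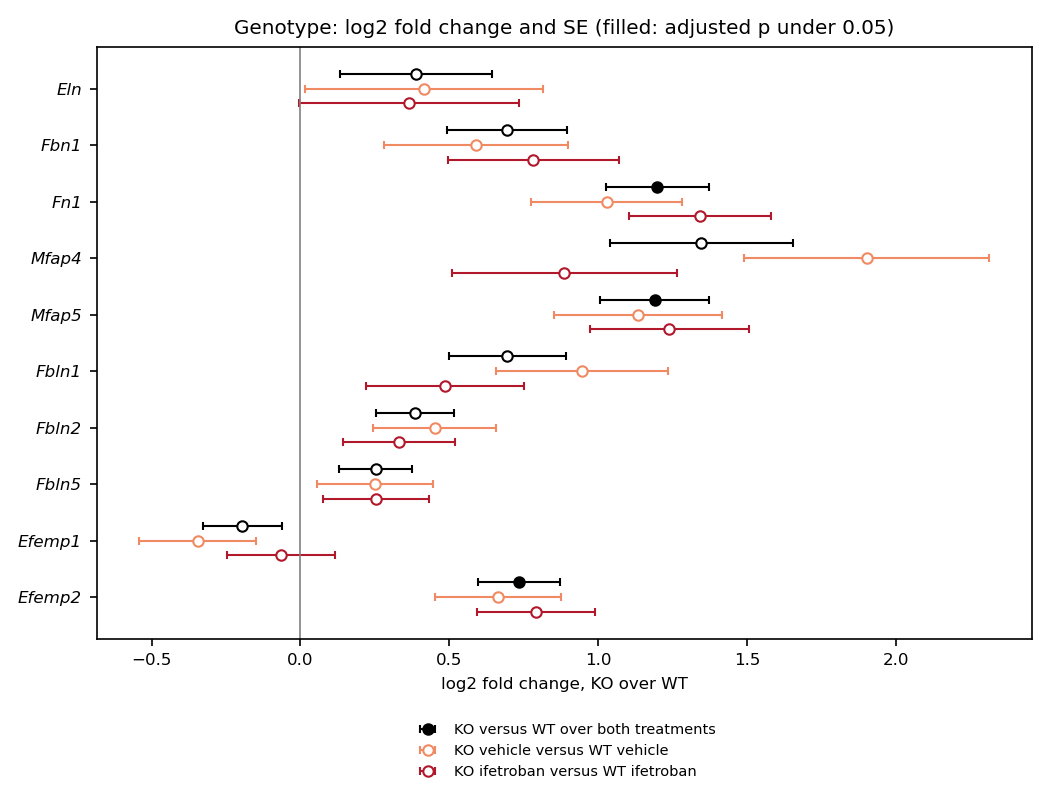
Log2 fold change of KO over WT with its SE (edgeR) for each elastic fibre gene, over both treatments (black), under vehicle (orange) and under ifetroban (red); filled points had an adjusted p under 0.05. Fn1, Mfap5 and Efemp2 are filled over both treatments at 1.20, 1.19 and 0.73, no gene is filled within a treatment, and Efemp1 lies below 0 in all of them.

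On plain water, KO vehicle was compared with WT vehicle, with 2 libraries each. Of the 10 genes 0 passed in edgeR, while 0.0515% of all genes did, or 8 genes, and DESeq2 called 3 of the 10 (Fn1, Mfap4 and Mfap5) and 0.926% of all genes. At an unadjusted p under 0.05 there were 5 of the 10 genes, all higher in KO, and 1229 genes in all. Mfap4 had the largest log2 fold change, 1.90 ± 0.41 (edgeR, adjusted p = 0.193), followed by Mfap5 at 1.13 ± 0.28 and Fn1 at 1.03 ± 0.25 (adjusted p = 0.282 for each). Fbln1 measured 0.95 ± 0.29 (adjusted p = 0.406), Efemp2 0.66 ± 0.21 (0.418) and Fbn1 0.59 ± 0.31 (0.725). Fbln2 measured 0.45 ± 0.21 (adjusted p = 0.645), Eln 0.42 ± 0.40 (0.865), Fbln5 0.25 ± 0.20 (0.837) and Efemp1 -0.35 ± 0.20 (0.749). Single WT libraries moved several of these values: Fbn1 was 0.16 without WT vehicle replicate 1 and 1.23 without WT vehicle replicate 2, Fn1 0.65 and 1.57, Eln -0.03 and 1.09, and Efemp1 -0.53 and -0.12, while Mfap5 was 0.74 without WT vehicle replicate 2. Fbln5 was 0.45 without KO vehicle replicate 1 and 0.02 without KO vehicle replicate 2, and Eln 0.18 without the second. Both KO vehicle libraries lay above both WT vehicle libraries for 8 of the 10, all but Eln and Efemp1, beside 18.3% of all genes.

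Under ifetroban, 3 KO libraries were compared with 2 WT libraries. Again 0 of the 10 passed in edgeR, while 0.0386% of all genes did, or 6 genes, and DESeq2 called 3 of the 10 (Efemp2, Fn1 and Mfap5) and 1.87% of all genes. Unadjusted p-values under 0.05 were found for 5 of the 10, all higher in KO, and for 1455 genes in all. Fn1 had the largest log2 fold change, 1.34 ± 0.24 (edgeR, adjusted p = 0.0892), followed by Mfap5 at 1.24 ± 0.27 (0.128) and Mfap4 at 0.89 ± 0.38 (0.508). Efemp2 measured 0.79 ± 0.20 (adjusted p = 0.179), Fbn1 0.78 ± 0.29 (0.414) and Fbln1 0.49 ± 0.27 (0.647). Eln measured 0.36 ± 0.37 (adjusted p = 0.807), Fbln2 0.33 ± 0.19 (0.664), Fbln5 0.25 ± 0.18 (0.732) and Efemp1 -0.07 ± 0.18 (0.931). Without KO ifetroban replicate 3, Mfap4 was 0.42, Fbln1 0.21, Fbln2 0.12 and Fbln5 0.16, and without KO ifetroban replicate 1 Fbln1 was 0.74. Eln was -0.07 without WT ifetroban replicate 1, 0.98 without WT ifetroban replicate 2 and 0.21 without KO ifetroban replicate 2, and Efemp1 ranged from -0.22 to 0.11 with each library left out. With the replicate block Mfap4 was 0.39. All KO ifetroban libraries lay above both WT ifetroban libraries for 5 of the 10 (Fbn1, Efemp2, Mfap4, Mfap5 and Fn1), beside 14.0% of all genes.

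The genotype difference was also taken within each set of libraries of 1 length slope. Each KO vehicle library had a negative slope and each WT ifetroban library a positive one. The negative set therefore gives 2 KO vehicle libraries against the library labelled WT vehicle replicate 1, with the spread taken from KO alone, and the positive set gives 2 KO ifetroban against 2 WT ifetroban libraries. In each set 3 of the 10 genes passed, beside 1.60% of all genes in the negative and 0.386% in the positive set. Fn1 passed in both sets, at a log2 fold change of 1.57 ± 0.12 (edgeR, adjusted p = 8.04e-04) in the negative set and 1.28 ± 0.10 (0.00436) in the positive set. Fbn1, which has the longest transcript of the 10, also passed in both, at 1.24 ± 0.12 (adjusted p = 0.00226) and 0.96 ± 0.09 (0.00902). Mfap5 measured 0.74 ± 0.15 in the negative set (adjusted p = 0.0550) and passed in the positive set at 1.20 ± 0.18 (0.0406), while Fbln1 passed in the negative set at 1.00 ± 0.11 (0.00617) and measured 0.76 ± 0.15 in the positive set (0.121). Efemp2 passed in neither, at 0.70 ± 0.17 (adjusted p = 0.0771) and 0.66 ± 0.19 (0.231), and Mfap4 measured 1.85 ± 0.63 and 1.14 ± 0.36 (0.374 for each). Eln measured 1.09 ± 0.20 (adjusted p = 0.0541) and 0.49 ± 0.42 (0.771), and Efemp1 -0.11 ± 0.19 (0.796) and -0.01 ± 0.17 (0.990). With the slope set as a term in the fit to all 9 libraries, 5 of the 10 genes rose over both treatments, beside 3.04% of all genes called, namely Fbn1 (1.04, adjusted p = 2.03e-04), Fn1 (1.32, 0.0267), Mfap5 (1.02, 0.0138), Efemp2 (0.64, 0.0315) and Fbln2 (0.51, 0.0406).

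**Figure D3:**
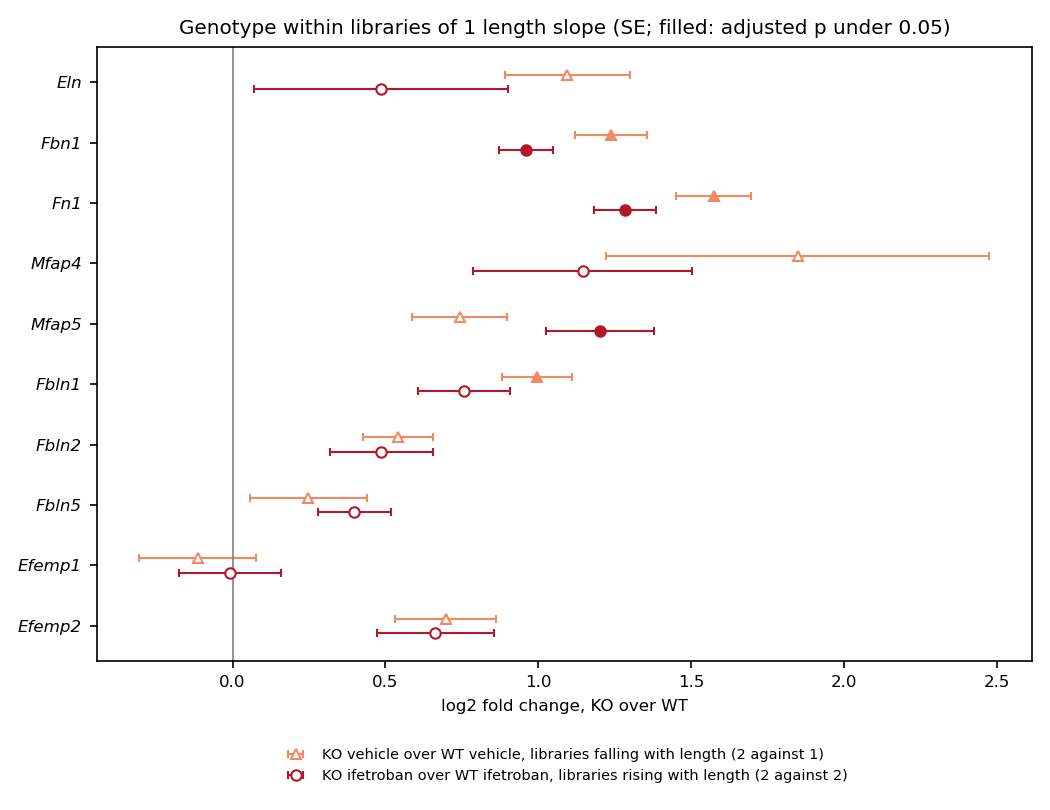
Log2 fold change of KO over WT with its SE (edgeR) for each elastic fibre gene within libraries with a negative length slope (triangles, 2 KO vehicle against 1 WT vehicle) and within libraries with a positive one (circles, 2 KO ifetroban against 2 WT ifetroban); filled symbols had an adjusted p under 0.05. Fn1 and Fbn1 are filled in both sets, and Efemp2 is open in both at 0.70 and 0.66.

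Ifetroban was compared with vehicle within each genotype and over both. In the KO ventricle no elastic fibre gene passed the threshold, and neither did any other gene (0% of 15549 in edgeR, 0 with DESeq2, 615 at an unadjusted p under 0.05). Mfap4 averaged 18.8 ± 9.46 CPM in KO ifetroban (SD, n = 3) and 37.2 ± 15.0 CPM in KO vehicle (n = 2), a log2 fold change of -0.98 ± 0.35 (edgeR, adjusted p = 0.862). With KO ifetroban replicate 1 counted as vehicle, as its treatment field has it, that value was -0.37. Fn1 averaged 135 ± 12.4 CPM in KO ifetroban and 90.9 ± 5.55 CPM in KO vehicle, at 0.57 ± 0.23 (edgeR, adjusted p = 0.862), and 0.21 with that library counted as vehicle. Mfap5 averaged 25.2 ± 3.49 CPM in KO ifetroban and 33.9 ± 5.15 CPM in KO vehicle, at -0.43 ± 0.25 (edgeR, adjusted p = 0.862). The KO treatment groups did not overlap for Fn1 (higher under ifetroban) and Mfap5 (lower), and overlapped for the other genes, Mfap4 among them. Of all 15549 genes tested, 1610 were likewise apart and higher under ifetroban, and 1517 apart and lower. Within the negative-slope libraries, KO ifetroban replicate 1 alone stands against both KO vehicle libraries and is assumed to vary like them. There Mfap4 measured -1.64 ± 0.61 (edgeR, adjusted p = 0.707), Fn1 0.72 ± 0.11 (0.0577) and Mfap5 -0.32 ± 0.15 (0.626), and Fbln1 passed at -1.11 ± 0.11 (0.0172), as 0.117% of all genes did. Without KO vehicle replicate 2, Mfap4 was -0.49 and Mfap5 -0.27. The positive set holds no KO vehicle library. The 10 genes ranged from -0.98 to 0.57 with a median of -0.17, beside 0.01 over all genes, and 3 of them were positive. With KO ifetroban replicate 1 counted as vehicle the median was 0.04 and 5 were positive.

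In the WT ventricle, too, 0% of genes passed (0 with edgeR and with DESeq2, 350 at an unadjusted p under 0.05). Efemp1 averaged 8.14 ± 1.33 CPM in WT ifetroban and 11.1 ± 2.25 CPM in WT vehicle (SD, n = 2 each), a log2 fold change of -0.45 ± 0.20 (edgeR, adjusted p = 0.881). Mfap5 measured -0.53 ± 0.29 and Efemp2 -0.25 ± 0.22 (adjusted p = 0.881 for each). Within the positive-slope libraries, which leave out WT vehicle replicate 1, Mfap5 measured -0.01 ± 0.22 and Efemp1 -0.65 ± 0.20 (edgeR, adjusted p = 1.00 for each). The negative set holds no WT ifetroban library. Without WT vehicle replicate 2, Mfap5 was -0.93 and Efemp1 -0.22, and Efemp2 was -0.52 without WT ifetroban replicate 1 and -0.02 without WT ifetroban replicate 2. The 10 genes ranged from -0.53 to 0.26, with a median of -0.07.

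Over both genotypes, with 5 ifetroban and 4 vehicle libraries, 0% of genes passed in edgeR, while DESeq2 called 2 genes, neither of them of elastic fibres, and 1238 had an unadjusted p under 0.05. The elastic fibre genes with the smallest p were Mfap5 (-0.47 ± 0.18), Fn1 (0.43 ± 0.17) and Efemp1 (-0.29 ± 0.13), each at an adjusted p of 0.545 in edgeR. The range over the 10 was -0.55 to 0.43 and the median -0.19, or -0.06 with KO ifetroban replicate 1 counted as vehicle. Whether the ifetroban effect differed between the genotypes was tested as an interaction, where 0% of genes passed (0 with edgeR and with DESeq2, 298 at an unadjusted p under 0.05). Mfap4 had the smallest p among the 10, at a log2 difference of -1.02 ± 0.55 (KO effect minus WT effect, edgeR, adjusted p = 1.00), followed by Fbln1 at -0.46 ± 0.39 and Efemp1 at 0.28 ± 0.27. With KO ifetroban replicate 1 counted as vehicle, the Mfap4 interaction was -0.41 and that of Fbln1 0.07. With each library left out, Mfap4 ranged from -1.46 to -0.53 (the second without KO vehicle replicate 2), Fbln1 from -0.71 to -0.21 (without KO ifetroban replicate 3 and replicate 1) and Efemp1 from 0.05 to 0.49 (without WT vehicle replicate 2 and replicate 1). The other 7 lay between -0.12 and 0.31. The KO ifetroban and KO vehicle libraries enter both the genotype and the ifetroban comparisons, so these values share samples.

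**Figure D4:**
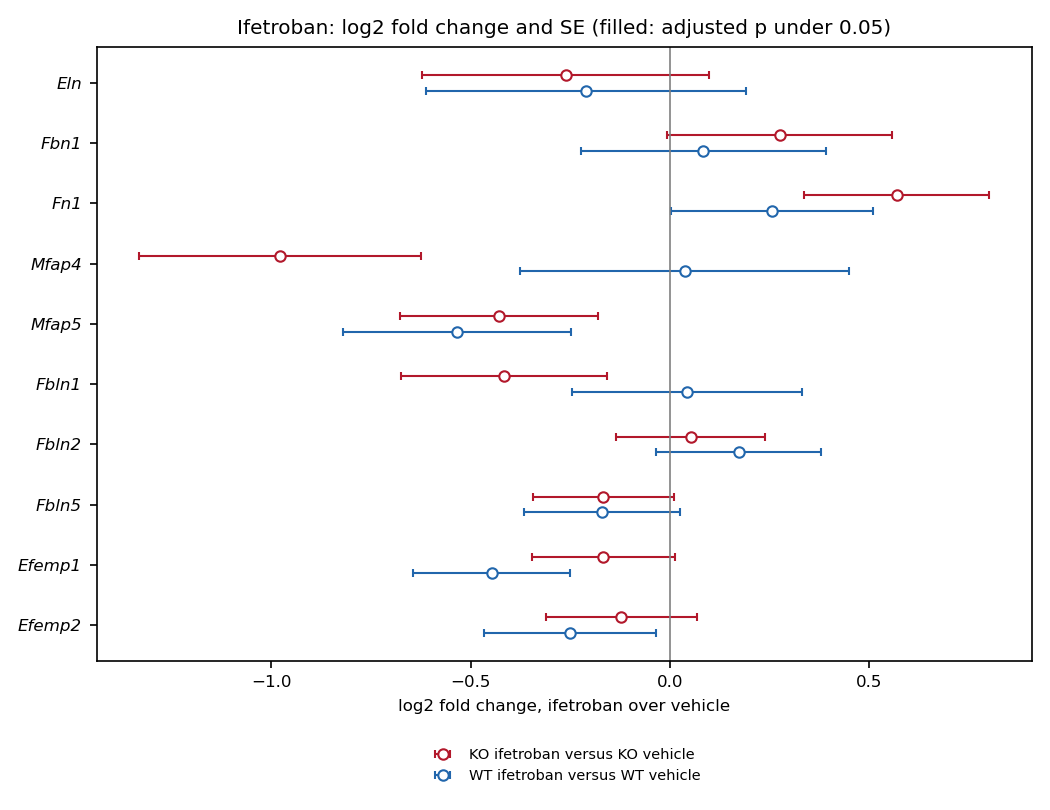
Log2 fold change of ifetroban over vehicle with its SE (edgeR) for each elastic fibre gene, in KO (red) and in WT (blue); filled points would mark an adjusted p under 0.05, and none is filled. Mfap4 at -0.98 and Fn1 at 0.57, both in KO, lie farthest from 0.

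Other genes of the elastic fibre pathway were taken from lists of 27 assembly partners, 11 receptors and 10 proteases. Of the 27 partners, 8 rose in KO over both treatments, 0 fell and 19 did not pass, with a median log2 fold change of 0.38. The cross-linking enzymes accounted for 4 of the 8: Lox averaged 18.4 CPM in KO and 4.82 CPM in WT (1.90 ± 0.15, edgeR, adjusted p = 3.31e-04), and Loxl1, whose product cross-links elastin, 74.7 CPM in KO and 41.6 CPM in WT (0.85 ± 0.08, adjusted p = 0.00180). Loxl2 (0.61 ± 0.12, adjusted p = 0.0321) and Loxl4 (1.45 ± 0.32, adjusted p = 0.0450) rose too. Tgfb2, a ligand stored on microfibrils in latent form, averaged 20.5 CPM in KO and 9.18 CPM in WT (1.16 ± 0.11, adjusted p = 0.00168). Ltbp2, a fibrillin-binding member of the latent TGF-beta binding protein family, averaged 26.4 CPM in KO and 5.84 CPM in WT (2.17 ± 0.36, adjusted p = 0.0181). Bgn, the gene of the proteoglycan biglycan, rose by 0.80 ± 0.15 (adjusted p = 0.0258), and Emilin1, a glycoprotein of the interface between elastin and microfibrils, by 0.66 ± 0.13 (adjusted p = 0.0292). Within a treatment, Lox passed under vehicle (1.73 ± 0.22, adjusted p = 0.0361) and under ifetroban (2.04 ± 0.20, adjusted p = 0.0125), and Ltbp2 passed under vehicle (3.17 ± 0.39, adjusted p = 0.0361) and measured 1.44 ± 0.34 under ifetroban (adjusted p = 0.160). Lox, Loxl1 and Tgfb2 passed in both slope sets: Lox at 2.06 ± 0.22 in the negative and 2.02 ± 0.15 in the positive set, Loxl1 at 1.03 ± 0.12 and 0.85 ± 0.10, and Tgfb2 at 1.21 ± 0.15 and 0.98 ± 0.13. Ltbp2 passed in the negative set at 3.70 ± 0.40 and measured 1.54 ± 0.36 in the positive set (edgeR, adjusted p = 0.244). Loxl2 measured 0.53 ± 0.11 in the negative and 0.72 ± 0.19 in the positive set (edgeR, adjusted p = 0.241 in the positive set). Loxl4, with 8 to 74 counts in a library, measured 1.88 ± 0.52 and 1.95 ± 0.39 (0.105 in the positive set). With each library left out in turn, Loxl2 passed 3 of 9 times, Loxl4 2, Emilin1 3 and Bgn 5. Lox, Loxl1 and Tgfb2 passed 9 of 9 times. Without KO vehicle replicate 1, and likewise without WT ifetroban replicate 2, 3 partners rose and not 8, and with each other library left out 4 to 9 did.

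None of the 11 receptors passed in the main comparison, with a median log2 fold change of 0.11. Those with the smallest p were Sdc4, a syndecan that binds fibronectin (0.50 ± 0.13, edgeR, adjusted p = 0.0746), and Itga5, which forms the classical fibronectin receptor with Itgb1 (0.45 ± 0.13, adjusted p = 0.119). DESeq2 called 2 receptors higher. In edgeR 1 rose with the slope set as a term (median 0.31) and 1 with KO ifetroban replicate 1 counted as vehicle (median 0.13). The median was 0.34 in the negative-slope libraries, which hold 1 WT library, and 0.16 in the positive-slope ones. Of the 10 proteases 8 were tested, 2 rose and 0 fell, with a median of 0.69. Mmp12, the macrophage metalloelastase, averaged 2.71 CPM in KO and 0.537 CPM in WT (2.22 ± 0.40, adjusted p = 0.0217). Ctss, an elastin-degrading cathepsin of macrophages, averaged 27.5 CPM in KO and 10.8 CPM in WT (1.32 ± 0.15, adjusted p = 0.00365), and it also passed under ifetroban (1.54 ± 0.18, adjusted p = 0.0331). Ctss passed in both slope sets, at 0.89 ± 0.14 in the negative and 1.42 ± 0.14 in the positive set, and Mmp12 in neither, at 2.33 ± 0.89 and 2.25 ± 0.43 (edgeR, adjusted p = 0.259 and 0.0963). The count of 2 proteases was 1 without KO vehicle replicate 1 or either WT ifetroban library.

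Some of the markers of cells that make or surround elastic fibres also rose in KO over both treatments. Of 10 fibroblast markers 3 rose, the collagen genes Col1a1 (0.91 ± 0.13, edgeR, adjusted p = 0.00901), Col1a2 (0.72 ± 0.16, 0.0409) and Col3a1 (1.16 ± 0.17, 0.00968), and their summed level was 2029 to 2863 CPM in KO ifetroban and 2675 to 2871 CPM in KO vehicle, against 1940 to 2118 CPM in WT ifetroban and 1752 to 2045 CPM in WT vehicle. The median over the fibroblast markers was 0.35 over both treatments, 0.56 under vehicle and 0.14 under ifetroban. Of 8 activated fibroblast markers 4 rose, namely Cthrc1 (3.39 ± 0.69, adjusted p = 0.0330), Ltbp2, Postn (1.77 ± 0.31, 0.0191) and Thbs4 (1.67 ± 0.22, 0.00689), and their summed level was 266 to 372 CPM in KO ifetroban and 506 to 602 CPM in KO vehicle, against 168 to 171 CPM in WT ifetroban and 129 to 161 CPM in WT vehicle. Of 8 macrophage markers 7 rose, namely Cd68 (1.18 ± 0.20, adjusted p = 0.0191), Lyz2 (1.04 ± 0.14, 0.00689), Adgre1 (0.68 ± 0.11, 0.0170), Csf1r (0.54 ± 0.11, 0.0319) and the complement genes C1qa, C1qb and C1qc (0.81 ± 0.14, 0.90 ± 0.16 and 0.78 ± 0.13). Their summed level was 527 to 569 CPM in KO ifetroban and 528 to 593 CPM in KO vehicle, against 246 to 329 CPM in WT ifetroban and 298 to 352 CPM in WT vehicle. In the positive-slope libraries 2 fibroblast, 1 activated fibroblast and 0 macrophage markers rose, beside 0.386% of all genes called. The median log2 fold changes of the 3 lists there were 0.22, 1.33 and 0.81. In the negative-slope libraries, which hold 1 WT library, these medians were 0.58, 2.49 and 0.72. Postn measured 2.57 ± 0.57 in the negative and 1.34 ± 0.25 in the positive set (edgeR, adjusted p = 0.171 in the positive set). Cthrc1 measured 8.53 ± 3.32 and 2.24 ± 0.57 (0.183 in the positive set). Without KO vehicle replicate 1, and likewise without WT ifetroban replicate 2, 1 macrophage and 1 activated fibroblast marker rose. Activated fibroblast markers also came to 1 without WT vehicle replicate 2, and fibroblast markers to 0 without WT ifetroban replicate 2. Cthrc1 had 0 to 83 counts in a library, and no other marker of these lists was at 0 in any library. The summed level of the 10 elastic fibre genes was 544 to 739 CPM in KO ifetroban and 608 to 654 CPM in KO vehicle, against 392 to 413 CPM in WT ifetroban and 332 to 441 CPM in WT vehicle. The part of fibroblast and macrophage numbers in the elastic fibre values was not tested.

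Vessel and muscle markers did not pass in the main comparison. Of 8 smooth muscle and pericyte markers 0 passed, with a median of 0.09, and those with the smallest p were Acta2 (0.72 ± 0.21, edgeR, adjusted p = 0.109) and Tagln (0.38 ± 0.14, 0.196). Their summed level was 970 to 1098 CPM in KO ifetroban and 1104 to 1233 CPM in KO vehicle, against 1007 to 1057 CPM in WT ifetroban and 923 to 1171 CPM in WT vehicle. Of 8 endothelial markers 0 passed (median -0.07), with Emcn at 0.14 ± 0.09 (adjusted p = 0.463) and Vwf at 0.28 ± 0.24 (0.599). The 8 cardiomyocyte markers, by which the labelled tissue was checked, summed to 43233 to 50403 CPM in KO ifetroban and 40754 to 43739 CPM in KO vehicle, against 54757 to 56743 CPM in WT ifetroban and 48735 to 54859 CPM in WT vehicle. None of them passed (median -0.12), with Myh6 at -0.46 ± 0.17 (adjusted p = 0.204) and Ttn at -0.53 ± 0.21 (0.260). Other settings moved these lists. The smooth muscle and pericyte median was 0.29 with the slope set as a term, 0.59 in the negative-slope libraries (1 WT library) and 0.09 in the positive-slope ones. DESeq2 and the replicate block each called 1 marker of that list higher. The endothelial median was 0.08, 0.14 and 0.01, and 1 marker rose with the term and 1 in the positive set. With the block 1 cardiomyocyte marker fell.

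Tissue at the borders of the ventricle was looked for in the same way, since valves and atria are rich in elastic fibres. Of 6 endocardial and valve markers 4 were tested and 1 rose, Prg4, the gene of lubricin (2.01 ± 0.30, edgeR, adjusted p = 0.0112), and their summed level was 79.9 to 111 CPM in KO ifetroban and 63.8 to 111 CPM in KO vehicle, against 42.7 to 51.1 CPM in WT ifetroban and 40.9 to 44.8 CPM in WT vehicle. Cldn11 of this list had 0 to 16 counts in a library. Among 5 atrial markers 2 were tested and 1 rose, Nppa (1.48 ± 0.27, adjusted p = 0.0217), a gene that stressed ventricle also expresses. Of the 2, Nppa had 4149 to 23849 counts in a library and Myl4 11 to 39, so their summed level was nearly that of Nppa alone. It was 350 to 706 CPM in KO ifetroban and 864 to 906 CPM in KO vehicle, against 203 to 273 CPM in WT ifetroban and 203 to 213 CPM in WT vehicle. Defining atrial genes were near 0, with at most 7 counts of Myl7 and of Bmp10 in a library. Of 7 mesothelial markers 6 were tested and 0 passed, at summed levels of 6.55 to 14.8 CPM in KO ifetroban and 7.02 to 8.79 CPM in KO vehicle, against 6.26 to 7.45 CPM in WT ifetroban and 5.75 to 13.6 CPM in WT vehicle. Among these, Krt19 measured 0.98 ± 0.66 (adjusted p = 0.492) and Msln 0.62 ± 0.68 (0.697). Within the slope sets, Prg4 measured 1.85 ± 1.41 in the negative set (edgeR, adjusted p = 0.675) and passed in the positive set at 1.87 ± 0.18, while Nppa passed in the negative set at 2.06 ± 0.14 and measured 0.60 ± 0.14 in the positive set (0.170). With each library left out in turn, Prg4 passed 7 of 9 times and Nppa 4 of 9 times. The part of valve tissue in the elastic fibre values was not tested.

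**Figure D5:**
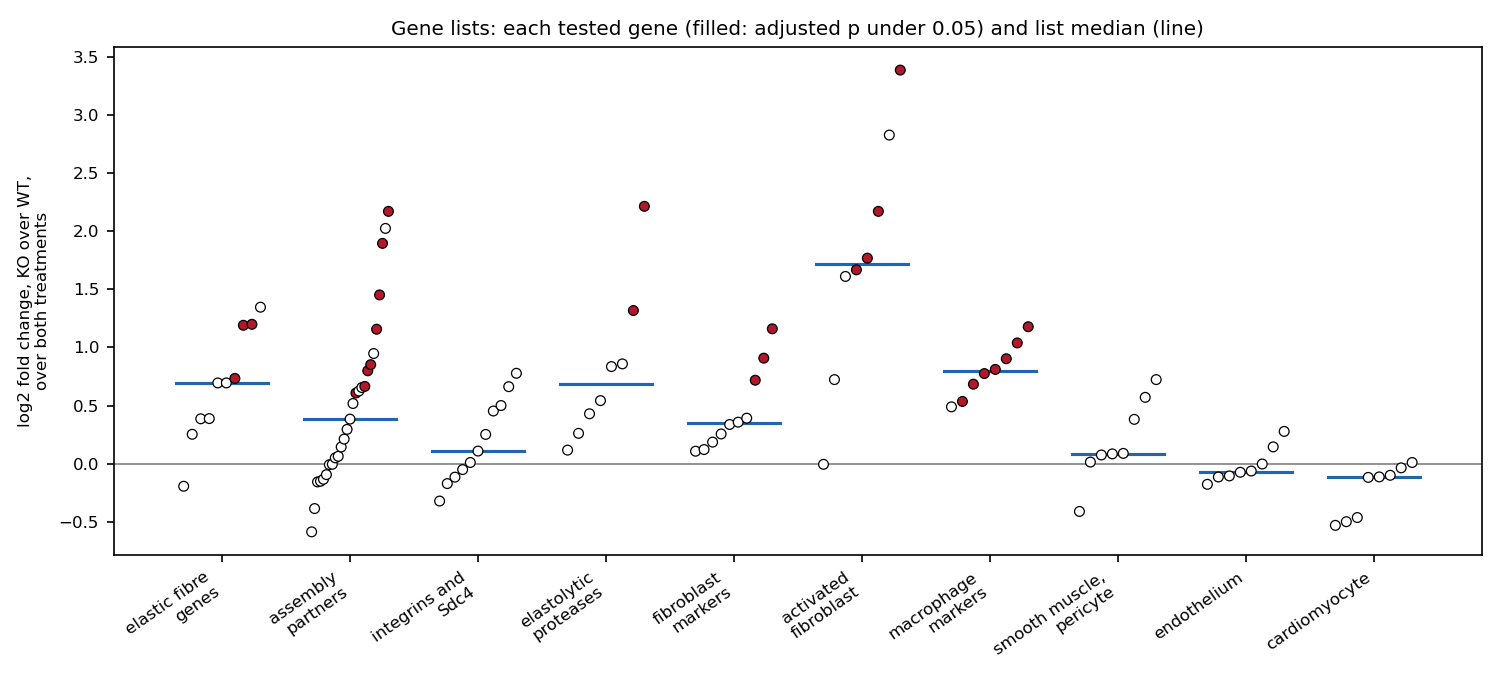
Log2 fold change of KO over WT over both treatments (edgeR) for each tested gene of 10 lists; points are genes in order of their value within a list, filled where the adjusted p was under 0.05, and lines are list medians. The elastic fibre genes have a median of 0.69, activated fibroblast markers 1.72 and macrophage markers 0.79, and the smooth muscle, endothelial and cardiomyocyte lists lie around 0 with no filled point.

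The shared profile of the 10 genes was taken as their mean log2 CPM after each gene was centred and scaled to an SD of 1 over the 9 libraries. It was -0.11, 0.39 and 0.81 in KO ifetroban and 0.48 and 1.00 in KO vehicle, against -0.78 and -0.76 in WT ifetroban and -0.84 and -0.18 in WT vehicle. Every KO library was above every WT library, and the nearest pair was KO ifetroban replicate 1 and WT vehicle replicate 2. Among 12205 other protein-coding genes with a mean of at least 1 CPM, those most like this profile were C4b, Adcy7, Anpep and Apoe (Pearson's r of 0.96 each) and Sfrp2 (0.95), over 9 libraries that share genotype, slope set and tissue. For single genes the closest were Marcks for Eln (0.93), Tnfrsf11a for Fbn1 (0.97), Lpar1 for Mfap4 (0.98) and Pqlc3 for Mfap5 (0.98). Clec4a1 was closest to Efemp2 (0.99), Thbs3 to Fbln5 (0.94), Foxo6 to Efemp1 (0.94), Cilp to Fbln1 (0.97), Slc7a2 to Fbln2 (0.95) and Csf2rb to Fn1 (0.97). These correlations describe the libraries and were not tested.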

How the data were processed

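The files hold 1 set of gene values for each of 9 left ventricle libraries. They are expected counts (28.2% not whole) that the authors deposited without scaling between libraries. Per the submitters' processing notes, Partek, STAR and bcl2fastq were used with build mm10, and no source used here gives the counting rule or a version. The end coordinates of the deposited annotation were lowered by 1, which made start and end equal to GENCODE M21 for 15551 of 19670 shared symbols, against 70 as deposited.

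Groups came from title and source name. After rounding, filterByExpr (minimum count 10) left 15549 genes, and TMM factors scaled the libraries. The quasi-likelihood test of edgeR 4.0.16 (R 4.3.3, robust) was fitted to all these genes and all 9 libraries, with 4 group means for comparisons within a treatment or genotype and for the interaction, and with genotype plus treatment for effects over both. Benjamini-Hochberg adjustment ran over all genes, with a threshold of 0.05, and variation between replicates had a common coefficient of 17.6%. Each SE is the size of the log2 fold change over the root of its F statistic. CPM per kilobase used the longest GENCODE M21 transcript, and promoter windows came from RefSeq. Scripts were tested on simulated counts.

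All 10 genes are named. In ifetroban comparisons the 3 with the smallest p are named, and of other lists the genes past the threshold in a genotype comparison, or the 2 with the smallest p over both treatments where none passed. The genes and lists were chosen with earlier results of these data known. Of the listed genes, Mmp7, Elane, Hapln1 and Sln were not analysed here, and Cldn11, Bmp10, Myl7 and Muc16 did not pass the filter. Alternatives were DESeq2 1.42.0 (size factors, and its Wald test), limma 3.58.1 (voom), a fit with no filter or with a minimum of 1 CPM throughout a group, a fit to only the groups compared, a replicate block, the vehicle label for KO ifetroban replicate 1, the slope set as a term, either set alone, and each library left out in turn.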

Additional observations from a re-analysis of the deposited data

Results flagged for a closer look

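The level of Efemp2 was 5.91 CPM in WT ifetroban replicate 2, the lowest of the 4 WT libraries, while the next lowest had 8.36 CPM. The gap made up 0.889 of the range over WT, beyond the critical value of Dixon's test for 4 samples. Of 20 sets examined, the 10 genes in KO and in WT, this was the 1 that passed, and chance gives about 1 in 20. Without that library Efemp2 kept a log2 fold change of 0.62 between KO and WT but did not pass the threshold (edgeR, adjusted p = 0.102), and neither did Fn1 (0.0578) or Mfap5 (0.0666).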

How the results depend on the processing

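Of 792 values of elastic fibre genes under the alternatives, 745 kept both direction and side of the threshold, 32 came to pass, 9 ceased to pass and 6 changed sign. The 792 values cover all 10 genes in the genotype comparisons, but only the 3 with the smallest p in each ifetroban comparison and in the interaction. Within a slope set, a comparison over both treatments or genotypes repeats one within a single group, and both were counted. None of the values that changed sign had passed the threshold: Efemp1 between KO ifetroban and WT ifetroban (-0.07) was 0.0145 with the slope set as a term, the Fbln1 interaction (-0.46) was 0.0749 with KO ifetroban replicate 1 counted as vehicle, and Fn1 for ifetroban over both genotypes (0.43) was -0.14 in the positive-slope libraries, which hold 1 vehicle library. With each library left out in turn, Eln between KO and WT ranged from -0.0286 to 1.09 under vehicle (0.42 with all libraries) and from -0.0699 to 0.98 under ifetroban (0.36), and Efemp1 under ifetroban from -0.22 to 0.11. Signs also changed outside the 792 values. For ifetroban in KO, Fbln1 (-0.42) was 0.12 and Fbln5 (-0.17) was 0.10 with KO ifetroban replicate 1 counted as vehicle. The number of elastic fibre genes that rose over both treatments, 3, was 6 with DESeq2 (with Fbln1, Fbn1 and Mfap4) and 5 with the slope set as a term. It was 4 (with Mfap4) in edgeR with DESeq2 size factors, and likewise with a minimum of 1 CPM throughout a group. With each library left out it was 0 to 5, 0 without WT ifetroban replicate 2 and 5 without KO ifetroban replicate 1. Under vehicle, 0 became 3 with DESeq2 (Fn1, Mfap4 and Mfap5), 3 in the negative-slope libraries, 1 with the slope set as a term (Fbn1) and 0 to 1 with each library left out (Fn1 without WT vehicle replicate 2). Under ifetroban, 0 became 3 with DESeq2 (Efemp2, Fn1 and Mfap5), 3 in the positive-slope libraries, 1 with the slope set as a term (Fbn1), 1 with only the groups compared (Fn1) and 0 to 1 with each library left out (Fn1 without either WT vehicle library). In the negative-slope libraries, which hold no WT ifetroban library, ifetroban in KO and ifetroban over both genotypes were the same comparison. It set KO ifetroban replicate 1 alone against the KO vehicle libraries, and Fbln1 measured -1.11. The cause of these changes was not tested. Of 12 correlations between same-numbered libraries 2 were over 0.1, at 0.50 and 0.33, both between WT vehicle and KO ifetroban. Deviations within a group of 2 libraries mirror each other, so these correlations are not independent. In both of these groups replicate 1 had a negative and replicate 2 a positive length slope. Replicate number and slope set cannot be told apart there, so the correlations do not settle whether replicate numbers pair the libraries. With the replicate block the number of elastic fibre genes that passed under vehicle was 1 (Mfap4). Genes called in all, over both treatments, were 363, and 896 with DESeq2, 550 with the block, 61 in the positive-slope libraries and 51 to 475 with each library left out (51 without WT ifetroban replicate 2, 58 without KO vehicle replicate 1). Under vehicle 8 became 144 with DESeq2, 18 without a filter, 5 with only the groups compared, 56 with the block, 118 with the slope set as a term, 247 in the negative-slope libraries and 28 with KO ifetroban replicate 1 counted as vehicle. Under ifetroban 6 became 290, 19 and 10 with the first 3 of these settings, 172 with the block, 143 with the slope set as a term and 61 in the positive-slope libraries. For ifetroban in KO 0 became 18 in the negative-slope libraries and 1 with the block. At 142 to 362 counts per library, Efemp2 had the least depth of the genes that rose.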

Other observations

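Among the assembly partners, latent TGF-beta binding proteins had values of either sign, of which only that of Ltbp2 passed the threshold, and the genes in this paragraph beyond those past the threshold were chosen after their values were seen. Of the latent TGF-beta binding proteins, Ltbp2 rose by 2.17 ± 0.36 on the log2 scale in KO over both treatments, while Ltbp3 measured 0.21 ± 0.16, Ltbp4, which binds fibulins, -0.13 ± 0.19, and Ltbp1 -0.39 ± 0.15 (edgeR, adjusted p of 0.550, 0.770 and 0.244). By mean level Ltbp4 was the highest of them, at 360 CPM in KO and 394 CPM in WT. Among the TGF-beta ligands, Tgfb2 rose by 1.16 ± 0.11, Tgfb3 measured 0.52 ± 0.13 (adjusted p = 0.0642) and Tgfb1 0.29 ± 0.10 (0.172). Of further microfibril genes, Mfap2 averaged 2.36 CPM in KO and 1.21 CPM in WT (0.95 ± 0.22, adjusted p = 0.0501), and Fbn2 averaged 1.30 CPM in KO and 0.814 CPM in WT (0.62 ± 0.52, adjusted p = 0.589). The differences between members of a family were not tested.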
